A study of Mus musculus with 18 samples.

Results

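Interferon-stimulated genes outside the GTPase families IRG and GBP were followed through 18 left-ventricle RNA libraries of C57BL/6J mice. The set held 41 genes picked by name as textbook interferon targets, out of 24421 genes in each count table, and all 41 passed the filter on low counts that left 13859 genes for testing. The libraries formed 6 groups of 3. Young WT mice were 3 to 4 months old and came from The Jackson Laboratory, aged WT mice were 24 to 26 months old and came from Charles River, and Sesn2-KO mice were 3 to 4 months old and came from the colony of the authors. Source therefore changed together with age and with genotype, and these cannot be told apart. Each of the 3 kinds of mice was studied after sham surgery, a thoracotomy that left the artery open, and after ischaemia and reperfusion (IR), in which the coronary artery that feeds the anterior wall (LAD) was shut during 45 min and open again over 24 h. The study asks how age and the loss of Sesn2, which encodes a stress protein acting on AMPK and mTORC1, bear on the reaction of the heart to IR. Libraries are called by group and replicate number, so that young sham 3 is the third young WT sham heart.

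Interferons are secreted when a cell senses foreign or misplaced nucleic acid. Type I interferons act through the receptor pair IFNAR1 and IFNAR2 and the kinases JAK1 and TYK2, and bring STAT2 and IRF9 into a complex that binds the interferon-stimulated response element (ISRE). Interferon gamma acts on the gamma-activated site (GAS), and reaches further genes by way of IRF1. The induced proteins detect viral RNA, block translation or entry, tag proteins with ISG15, and present antigen or restrain T cells. In the heart, resident macrophages, fibroblasts, endothelium and cardiomyocytes can all mount this programme, and after infarction it is known from macrophages that have taken up DNA of dying cells.

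Libraries held 9404531 to 14458047 gene counts. Values in CPM are counts per 1000000 gene counts of the library. Sesn2 itself was at 2.498 to 6.03 CPM in the 12 WT libraries and at 0 to 0.362 CPM in the 6 libraries labelled Sesn2-KO, so genotypes matched their labels. Summed cardiomyocyte markers (Myh6, Tnnt2, Actc1, Ttn, Myl2, Ryr2) summed to 30901 to 34510 CPM in the 6 sham WT hearts and to 23435 to 27771 CPM in the other 12 libraries. In each group 1 library leaned towards long transcripts (rank correlation of its deviation from the group with transcript length 0.329 to 0.502 over 13367 genes): the first heart of young sham and of aged sham, and the third of each of the other 4 groups. Across the 41 genes these 6 libraries had median ratios to the other libraries of their group of 0.463 to 0.987. In 4 groups the tilted library had the lowest such ratio, but in young IR and aged IR the second heart had it, at 0.912 and 0.837 against 0.979 and 0.987. The part of transcript length in this was not tested. The labels do not say what replicates share, so a p-value here speaks of the spread among these 18 samples.

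Since the ISRE is where the type I signal reaches these genes, the 200 bases before the start of 5 members are shown. They were taken from RefSeq promoters on GRCm38.p6 and run 5′ to 3′ along the gene's own strand, with the ISRE core in capitals, that is 2 copies of GAAA with any 2 bases between them, on either strand. Isg15 and Ifit3 stand for classical type I targets, Rsad2 and Ifitm2 are genes whose levels differed between groups below, and Cd274 is the member that reached the highest level in any library relative to its group.
Isg15 (chr4:156200819-156201018): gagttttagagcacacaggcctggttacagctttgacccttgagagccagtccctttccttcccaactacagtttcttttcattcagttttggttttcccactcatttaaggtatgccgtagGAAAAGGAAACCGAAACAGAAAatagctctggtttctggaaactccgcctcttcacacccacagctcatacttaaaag
Ifit3 (chr19:34583329-34583528): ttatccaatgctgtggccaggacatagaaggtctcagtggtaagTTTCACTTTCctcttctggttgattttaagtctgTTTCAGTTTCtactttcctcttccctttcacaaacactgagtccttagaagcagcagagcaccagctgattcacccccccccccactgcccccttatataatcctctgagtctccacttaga
Rsad2 (chr12:26456453-26456652): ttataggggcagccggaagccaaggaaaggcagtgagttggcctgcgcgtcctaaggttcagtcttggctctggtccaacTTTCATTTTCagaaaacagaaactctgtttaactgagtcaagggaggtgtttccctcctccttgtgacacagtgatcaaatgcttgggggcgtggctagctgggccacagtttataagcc
Ifitm2 (chr7:140955962-140956161): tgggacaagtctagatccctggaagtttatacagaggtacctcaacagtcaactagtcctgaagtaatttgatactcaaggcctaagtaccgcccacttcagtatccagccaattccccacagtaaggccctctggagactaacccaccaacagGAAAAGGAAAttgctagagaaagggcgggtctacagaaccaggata
Cd274 (chr19:29367238-29367437): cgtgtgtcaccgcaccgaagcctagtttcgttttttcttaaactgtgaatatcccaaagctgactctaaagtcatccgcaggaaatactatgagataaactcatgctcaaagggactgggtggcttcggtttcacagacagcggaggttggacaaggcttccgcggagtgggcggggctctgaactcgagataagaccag
In Isg15, which encodes the ubiquitin-like protein ISG15, 3 overlapping matches began 78, 72 and 66 bases before the start. Ifit3, which encodes an antiviral adaptor, had matches 156 and 122 bases before the start. Rsad2, which encodes the radical-SAM enzyme viperin, had 1 match at 120 bases, and Ifitm2, a membrane protein that hinders viral fusion, had 1 at 46 bases. Cd274, the checkpoint ligand PD-L1, had none in these letters.

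Of the 41 genes, 32 had an entry in the promoter table, with windows from 250 bases before to 50 after the start. An ISRE core lay in 15 of the 32 (46.9%), against 3.99% of 27025 genes with a window of the same length. The 15 were Stat2, Ifih1, Ddx58, Eif2ak2, Oas1a, Oas3, Ifit1, Ifit3, Ifitm2, Ifitm3, Rsad2, Bst2, Isg15, Trim30a and Socs1. The GAS core, TTC and GAA with any 3 bases between them, which reads the same on both strands, lay in 8 of the 32 (25.0%), against 9.55% of genes. Those were Irf1, Irf8, Eif2ak2, Oas1a, Ifit2, Ifitm3, Bst2 and Ifi35. The members were chosen as known interferon targets, so these shares describe the list and lend nothing to the expression results. Several members are chromosomal neighbours: Rsad2 and Cmpk2 lie on opposite strands 12752 bases apart on chromosome 12, Ifit2, Ifit3 and Ifit1 follow each other on chromosome 19, Ifitm2, Ifitm1 and Ifitm3 cluster on chromosome 7, and Parp14, Dtx3l and Parp9 on chromosome 16. In GENCODE M21 on GRCm38, Rsad2 spans chr12:26442746-26456452, Cmpk2 chr12:26469204-26479837, Ifitm2 chr7:140954837-140955987, Ifitm1 chr7:140967221-140969825, Isg15 chr4:156199424-156200818, Ifit3 chr19:34583531-34588731 and Cd274 chr19:29367455-29388095.

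The 2 libraries with the highest levels of these genes were sham hearts. Young sham 3 held the highest value of its group for 39 of the 41 genes and the highest of all 18 libraries for 31. Aged sham 2 held the highest value of its group for 40 and the highest of all 18 for 3. Both were above all of the other 16 libraries for 32 genes. The median ratio to the mean of the other 2 hearts of the group was 2.76 in young sham 3 and 1.70 in aged sham 2, while the median over all tested genes was 0.965 and 0.997. In young sham 3, 29 of the 41 genes were at least 2-fold above their group mates, beside 1.91% of all tested genes, and in aged sham 2 it was 12, beside 2.40%. These hearts stand apart by the very genes described here, so their ratios are a description without a test, and the comparisons further on are given with and without them.

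**Figure D1:**
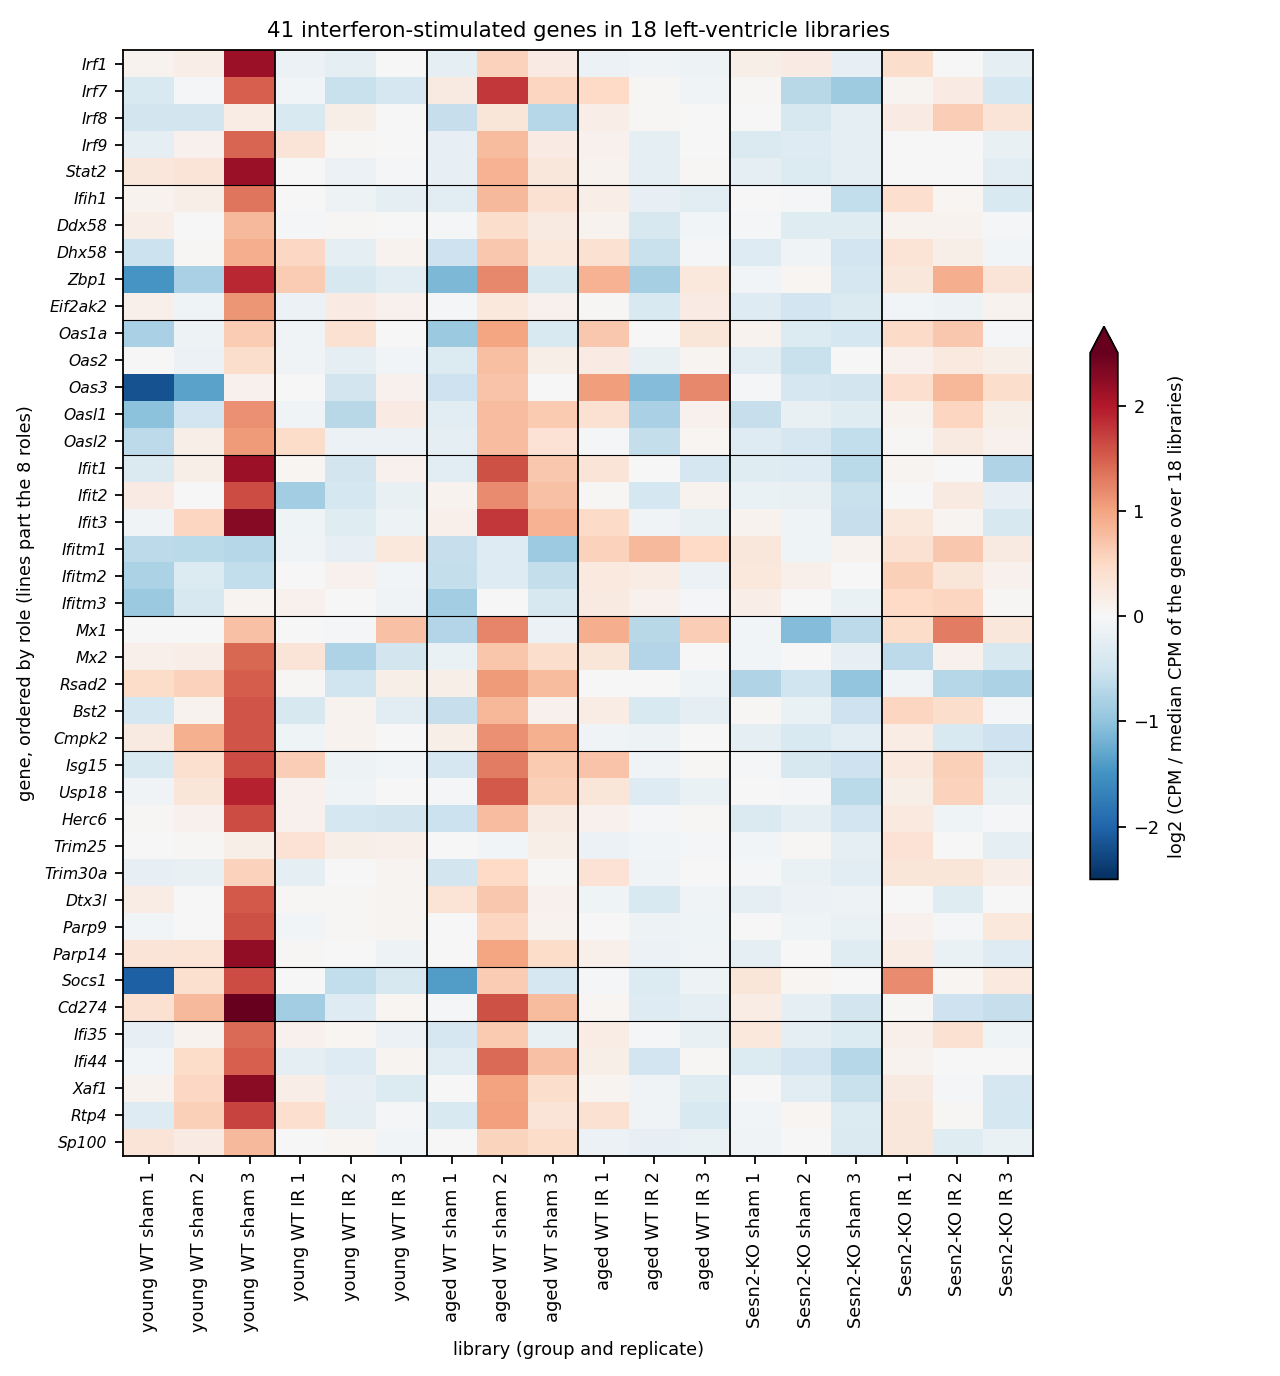
Colour gives log2 of CPM over the gene's median CPM across 18 libraries, with 41 genes in rows by role and libraries in columns by group; the scale ends at 2.5 and Cd274 in young sham 3 exceeds it. Young WT sham 3 and aged WT sham 2 form the red columns, and the Ifitm1, Ifitm2 and Ifitm3 rows show a different order, with pale or blue values in the sham WT hearts.

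Transcription factors of the response showed the 2 hearts with 1 exception. Irf1, the early factor that carries the interferon gamma signal on, had the highest mean level among them. Sham levels of Irf1 were 44.6, 46.8 and 183 CPM in young WT, 35.8, 62.5 and 48.2 CPM in aged WT and 46.3, 48.2 and 35.96 CPM in Sesn2-KO. Its IR levels, in that order, were 37.5, 35.9 and 41.8, then 37.8, 39.2 and 38.2, then 56.8, 41.6 and 35.8 CPM. Young sham 3 was 4.01-fold above its group mates and aged sham 2 1.49-fold, whereas the other 16 libraries kept within 35.8 to 56.8 CPM. Irf7, the amplifier of type I interferon production, behaved otherwise. For Irf7, young WT gave 25.7, 32.7 and 93.5 CPM after sham and 31.9, 22.6 and 24.99 CPM after IR. Aged WT gave 38.9, 114 and 48.1 and, after IR, 46.98, 33.8 and 31.2 CPM. Sesn2-KO gave 33.8, 20.5 and 17.9 and, after IR, 34.8, 38.4 and 24.4 CPM. Its peak was in aged sham 2, at 114 CPM, above the 93.5 CPM of young sham 3, and the next library, aged sham 3, was at 48.1 CPM. Irf7 overlaps Phrf1, a gene on the opposite strand with a mean of 33.6 CPM. The strand option of the counting is not given in the sources used here. Stat2, part of the type I complex, followed the order of Irf1. Stat2 in the sham hearts was 34.1, 34.8 and 125 CPM (young WT), 24.1, 51.2 and 33.8 CPM (aged WT) and 23.96, 22.1 and 23.7 CPM (Sesn2-KO). After reperfusion the values were 28.1, 25.3 and 27.3 CPM, 29.9, 23.5 and 28.6 CPM and 28.1, 27.9 and 23.2 CPM. Irf9, its DNA-binding partner, read 78.8 CPM in young sham 3 and 50.03 CPM in aged sham 2 against 22.3 to 35.97 CPM elsewhere, although it shares sequence on its strand with Rnf31. Irf8, a factor of myeloid cells, was the exception, with 15.8 and 16.97 CPM in the 2 hearts and 8.41 to 21.2 CPM elsewhere, its highest value being in Sesn2-KO IR 2.

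Sensors of nucleic acid showed the same 2 hearts. Eif2ak2, the kinase PKR that halts translation on double-stranded RNA, had the highest mean level of the 5. Young WT hearts had 27.5, 23.5 and 53.9 CPM of Eif2ak2 after sham and 22.7, 29.1 and 27.3 CPM after IR. Their aged counterparts had 24.8, 30.2 and 27.2 CPM and 25.6, 19.5 and 28.97 CPM. Knockout hearts had 20.1, 18.01 and 19.7 CPM and 24.03, 23.2 and 26.95 CPM. Young sham 3 was 2.11-fold above its mates, while aged sham 2 was 1.16-fold above its own. Zbp1, the sensor of Z-form nucleic acid that can start necroptosis, had the second steepest ratio of all 41 genes in young sham 3, at 7.97, and the steepest of all in aged sham 2, at 3.77. It stood at 24.5 and 15.3 CPM there, and the other 16 libraries spanned 2.38 to 12.4 CPM. Ifih1, the long-RNA sensor MDA5, read 53.5 and 36.7 CPM against 13.7 to 28.1 CPM. The short-RNA sensor RIG-I, listed as Ddx58, read 39.8 and 30.8 CPM against 17.2 to 26.6 CPM, and its relative Dhx58 read 9.98 and 8.45 CPM against 3.62 to 7.66 CPM.

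The oligoadenylate synthetases, which make the second messenger that switches on RNase L, gave a different ranking of the 2 hearts in CPM. Oasl2, an OAS-like protein with a ubiquitin-like tail, had the highest mean level. In young WT, Oasl2 stood at 13.3, 23.1 and 43.6 CPM after sham and 28.6, 18.9 and 18.8 CPM after IR. In aged WT it stood at 17.98, 35.7 and 26.8 CPM and 20.6, 13.8 and 21.6 CPM. In Sesn2-KO it stood at 16.8, 15.7 and 13.7 CPM and 21.3, 24.5 and 22.5 CPM. Oas1a, Oas2 and Oas3 were higher in aged sham 2 than in young sham 3, at 14.1 against 11.1 CPM, 27.1 against 21.9 CPM and 2.59 against 1.704 CPM. Oasl1, known to repress translation of Irf7, and Oasl2 had the reverse order, with Oasl1 at 6.37 against 8.196 CPM. Over the 5 genes the median of CPM in young sham 3 over CPM in aged sham 2 was 0.808, the 1 role of the 8 in which it was below 1. Relative to group mates, the median ratio was 2.39 in young sham 3 and 1.77 in aged sham 2, the same order as in the other roles. Oas3 was low throughout and peaked in aged IR 3, at 3.67 CPM. The table also holds Oas1b, Oas1c and Oas1g, near relatives of Oas1a, and how the counting shared reads among them is not given in the sources used here.

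Among the IFIT proteins, IFIT1 binds RNA that lacks the host cap marks, and the genes of this family were among the clearest in the 2 hearts. Sham levels of Ifit3 were 24.4, 37.7 and 126 CPM in young WT, 28.5, 89.1 and 47.8 CPM in aged WT and 27.8, 24.3 and 17.4 CPM in Sesn2-KO. Its IR levels, in that order, were 24.1, 21.3 and 23.7, then 36.2, 24.7 and 22.8, then 31.2, 27.5 and 19.8 CPM. Ifit3 was 4.07-fold and 2.34-fold above group mates in young sham 3 and aged sham 2, and its close copy Ifit3b read 49.8 and 31.4 CPM there against 5.86 to 14.4 CPM elsewhere. Reads that fit both copies make the split between them uncertain. For Ifit2, young WT gave 36.5, 31.5 and 97.4 CPM after sham and 17.2, 23.3 and 27.8 CPM after IR. Aged WT gave 33.4, 71.4 and 52.6 and, after IR, 32.1, 23.2 and 33.3 CPM. Sesn2-KO gave 28.3, 27.6 and 21.4 and, after IR, 31.5, 36.7 and 27.2 CPM. The lowest young WT sham value of Ifit2, 31.5 CPM, was above the highest young WT IR value, 27.8 CPM. Ifit1 read 77.01 and 52.998 CPM in the 2 hearts and 10.4 to 27.95 CPM elsewhere.

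The IFITM proteins sit in membranes and hinder fusion of viruses, and their genes did not share the pattern. Ifitm1 in the sham hearts was 6.45, 6.36 and 6.17 CPM (young WT), 6.85, 8.08 and 5.42 CPM (aged WT) and 12.3, 9.38 and 10.7 CPM (Sesn2-KO). After reperfusion the values were 9.58, 8.81 and 12.1 CPM, 15.2, 17.8 and 14.4 CPM and 13.3, 16.3 and 11.9 CPM. The 3 young sham hearts were within 6.17 to 6.45 CPM of Ifitm1, young sham 3 being the lowest, and no sham WT heart reached the lowest IR or Sesn2-KO heart. Young WT hearts had 69.6, 95.9 and 78.7 CPM of Ifitm2 after sham and 122, 129 and 116 CPM after IR. Their aged counterparts had 79.4, 96.1 and 80.2 CPM and 144, 136 and 109.8 CPM. Knockout hearts had 145, 132 and 119.7 CPM and 181, 149 and 130.5 CPM. For Ifitm2, too, all 6 sham WT hearts lay below the other 12 libraries, at 69.6 to 96.1 CPM against 109.8 CPM or more. How many of all tested genes split the libraries in this way was not counted. Tested genes higher without overlap made up 12.7% for IR against sham in young WT and 14.8% in aged WT. For Sesn2-KO against young WT sham hearts it was 14.9%. In each of these comparisons the members higher without overlap were Ifitm1 and Ifitm2 (4.88% of the 41). In young WT, Ifitm3 stood at 78.5, 114 and 156 CPM after sham and 162, 150.1 and 141 CPM after IR. In aged WT it stood at 82.3, 149.5 and 113 CPM and 177, 162 and 144 CPM. In Sesn2-KO it stood at 168, 150.04 and 133 CPM and 212, 217 and 154 CPM. Ifitm3, the best studied of the 3 and the one with the highest level of its role, mixed both patterns, with young sham 3 and aged sham 2 highest in their groups and the Sesn2-KO IR hearts 1 and 2 highest of all.

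**Figure D2:**
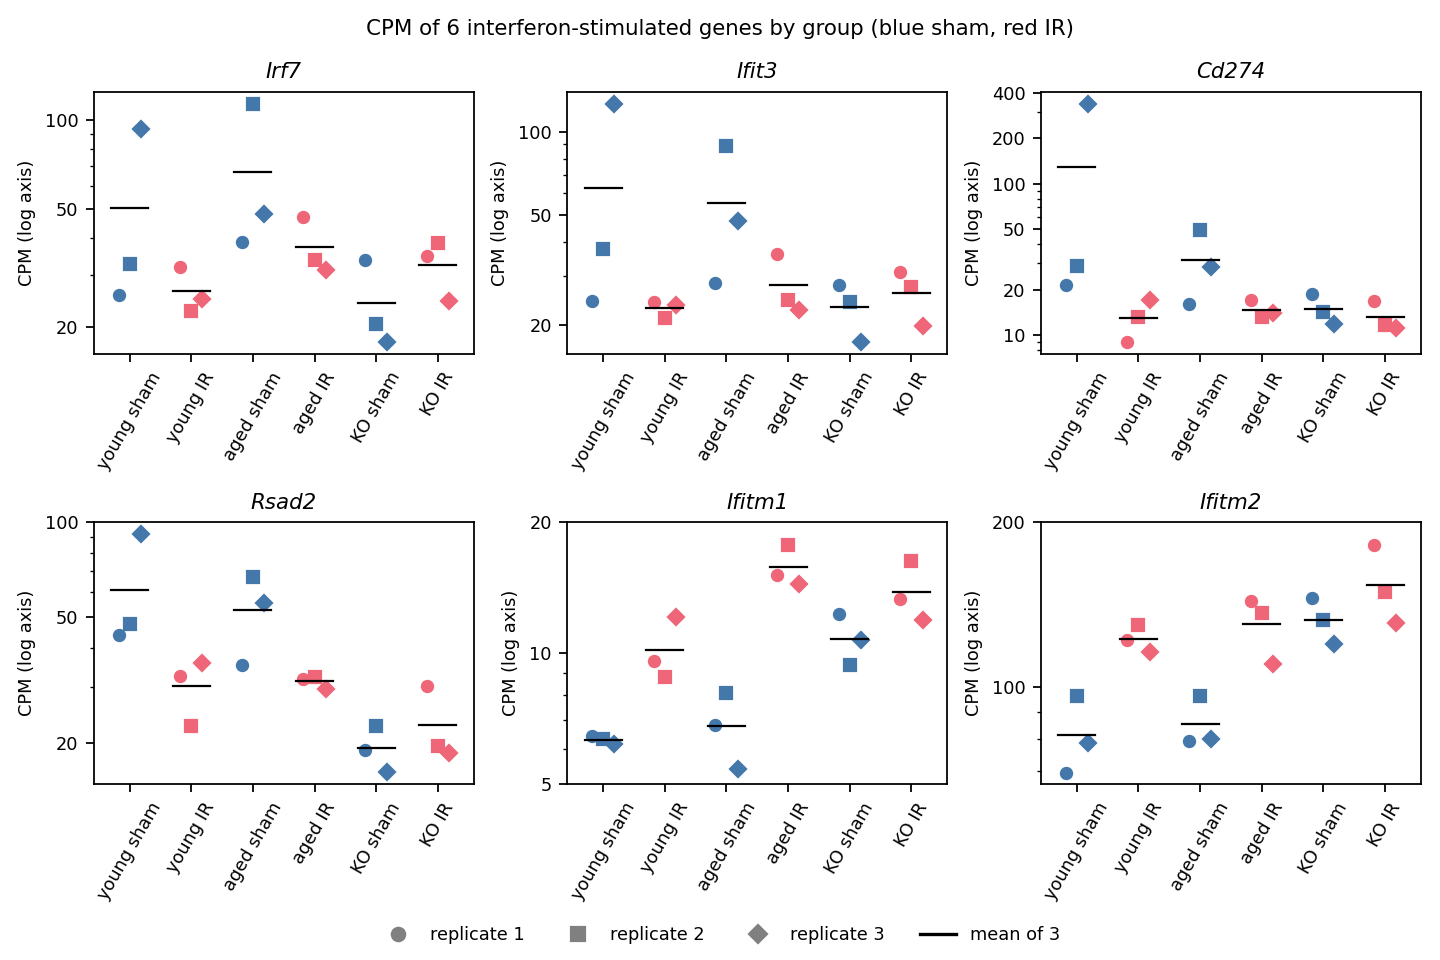
Points are CPM on a log axis for 6 of the 41 genes in the 6 groups, with 1 marker shape per replicate and a line at the mean of 3. Irf7, Ifit3 and Cd274 have 1 high heart in young sham and 1 in aged sham, Rsad2 is lowest in the Sesn2-KO groups, and Ifitm1 and Ifitm2 are lower in all 6 sham WT hearts than in the other 12.

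Among the other direct effectors, Rsad2 and Cmpk2 form a divergent neighbour pair. Viperin turns CTP into a chain terminator of viral RNA, and Cmpk2 encodes a mitochondrial nucleotide kinase. Sham levels of Rsad2 were 44.1, 47.7 and 91.7 CPM in young WT, 35.3, 67.3 and 55.6 CPM in aged WT and 18.98, 22.6 and 16.2 CPM in Sesn2-KO. Its IR levels, in that order, were 32.6, 22.7 and 35.8, then 31.8, 32.4 and 29.8, then 30.3, 19.6 and 18.7 CPM. All 3 Sesn2-KO sham hearts lay below all 12 WT libraries for Rsad2, if barely, since young IR 2 was at 22.7 CPM and Sesn2-KO sham 2 at 22.6 CPM. For Cmpk2, young WT gave 14.5, 22.8 and 36.9 CPM after sham and 11.5, 13.1 and 12.3 CPM after IR. Aged WT gave 13.7, 27.4 and 22.8 and, after IR, 11.7, 11.4 and 12.4 CPM. Sesn2-KO gave 10.6, 9.53 and 10.2 and, after IR, 14.1, 9.51 and 8.66 CPM. Young sham 3 was 1.997-fold above its mates for Rsad2 and 1.98-fold for Cmpk2, and the Sesn2-KO sham hearts of Cmpk2 also lay below those of young WT. Bst2, or tetherin, holds budding virus on the cell and was the most abundant of the role. Bst2 in the sham hearts was 33.7, 48.9 and 137 CPM (young WT), 30.5, 81.3 and 49.3 CPM (aged WT) and 46.6, 40.8 and 31.98 CPM (Sesn2-KO). After reperfusion the values were 34.9, 48.9 and 37.4 CPM, 52.3, 35.1 and 39.3 CPM and 66.5, 61.7 and 44.9 CPM. Bst2 in young sham 3 was 3.31-fold above its mates. The dynamin-like Mx1 and Mx2 were low, at 3.41 and 8.196 CPM in young sham 3, 4.82 and 4.89 CPM in aged sham 2, and 0.967 to 5.01 and 1.78 to 4.11 CPM elsewhere.

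Modifiers of proteins made up the largest role, with 8 genes. Young WT hearts had 9.05, 15.5 and 36.2 CPM of Isg15 after sham and 17.99, 10.7 and 11.3 CPM after IR. Their aged counterparts had 8.71, 28.6 and 18.4 CPM and 19.3, 11.1 and 12.04 CPM. Knockout hearts had 11.4, 8.86 and 8.25 CPM and 13.9, 17.8 and 9.63 CPM. The length-tilted young sham 1 and aged sham 1 had the lowest values of their groups. The group means of Isg15 were 20.3 ± 14.2 CPM (SD, n = 3) in young sham, 18.6 ± 9.95 CPM in aged sham and 9.51 ± 1.69 CPM in Sesn2-KO sham. Parp14, a mono-ADP-ribosyl transferase, had the highest level. In young WT, Parp14 stood at 61.998, 62.7 and 232 CPM after sham and 50.9, 49.7 and 45.8 CPM after IR. In aged WT it stood at 49.2, 98.5 and 68.4 CPM and 54.2, 45.1 and 47.04 CPM. In Sesn2-KO it stood at 42.1, 49.6 and 40.4 CPM and 56.4, 44.2 and 39.9 CPM. Its ratio to group mates was 3.71 in young sham 3 and 1.67 in aged sham 2. Dtx3l and Parp9, ubiquitin ligase partners whose genes overlap on opposite strands, read 82.1 and 105 CPM in young sham 3 and 44.8 and 50.2 CPM in aged sham 2. Usp18, the protease that strips ISG15 and damps the receptor, read 26.5 and 20.3 CPM against 4.41 to 10.7 CPM, and Herc6, the mouse ligase for ISG15, 31.6 and 17.4 CPM against 7.05 to 12.1 CPM. Trim30a gave 34.0 and 32.2 CPM against 16.6 to 29.2 CPM. Trim25, the ligase that assists RIG-I, was raised in neither heart, at 62.6 and 54.4 CPM against 48.6 to 73.02 CPM.

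Cd274 had the widest span of any member. Sham levels of Cd274 were 21.5, 28.8 and 339 CPM in young WT, 16.2, 49.7 and 28.4 CPM in aged WT and 18.8, 14.2 and 11.9 CPM in Sesn2-KO. Its IR levels, in that order, were 9.08, 13.1 and 16.98, then 17.1, 13.2 and 14.1, then 16.8, 11.6 and 11.1 CPM. Young sham 3 was 13.5-fold above the other 2 young sham hearts and 6.82-fold above aged sham 2, while aged sham 2 was 2.23-fold above its own mates. The next library, young sham 2, was at 28.8 CPM. Socs1, the feedback inhibitor of JAK kinases, was low, at 6.25 and 3.11 CPM in the 2 hearts and 0.491 to 4.56 CPM elsewhere. Of the remaining genes, Xaf1, an antagonist of the apoptosis inhibitor XIAP, was the steepest in young sham 3, at 3.81-fold above its mates. In aged sham 2 its ratio was 1.70, below those of Ifi44 (2.13), Rtp4 (2.00) and Ifi35 (1.92). For Xaf1, young WT gave 14.4, 19.5 and 64.8 CPM after sham and 15.2, 11.8 and 10.7 CPM after IR. Aged WT gave 13.8, 27.4 and 18.5 and, after IR, 14.2, 12.8 and 10.996 CPM. Sesn2-KO gave 13.5, 11.3 and 9.26 and, after IR, 15.8, 13.3 and 10.1 CPM. Sp100, a nuclear-body protein, had the highest level of the remaining genes. Sp100 in the sham hearts was 45.4, 41.8 and 63.1 CPM (young WT), 35.9, 52.9 and 49.9 CPM (aged WT) and 34.1, 36.5 and 27.9 CPM (Sesn2-KO). After reperfusion the values were 36.3, 37.4 and 34.2 CPM, 32.7, 31.2 and 32.03 CPM and 44.2, 29.2 and 32.3 CPM. Sp100 in young sham 3 was 1.45-fold above its mates. Ifi35, Ifi44 and Rtp4 read 92.5, 20.7 and 44.1 CPM in young sham 3, and 54.5, 19.6 and 27.5 CPM in aged sham 2. Rtp4 overlaps Masp1, a gene on the opposite strand with a mean of 20.2 CPM.

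In CPM the order of the 2 hearts was not the same for all genes. Young sham 3 exceeded aged sham 2 for 33 genes and fell short for 8: Irf7, Irf8, Oas1a, Oas2, Oas3, Ifitm1, Ifitm2 and Mx1. Against group mates, Irf7 and Oas3 were steeper in young sham 3, at 3.20 against 2.62 and 3.48 against 1.92. The rest of these 8 were steeper in aged sham 2. Irf8, Oas3, Ifitm1, Ifitm2 and Mx1 were above all of the other 16 libraries in neither heart. The difference between the hearts was not tested. Over the 41 genes the log2 ratios of the 2 hearts to their group mates had a Spearman correlation of 0.51 and a Pearson correlation of 0.55, a description over genes of 2 libraries. By role, the median ratio to group mates was 3.20 in young sham 3 and 1.77 in aged sham 2 for transcription factors. It was 2.39 and 1.77 for the OAS family and 2.24 and 1.60 for the IFIT and IFITM families. Modifiers stood at 2.94 and 1.64, and Socs1 and Cd274 at 8.72 and 2.49.

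**Figure D3:**
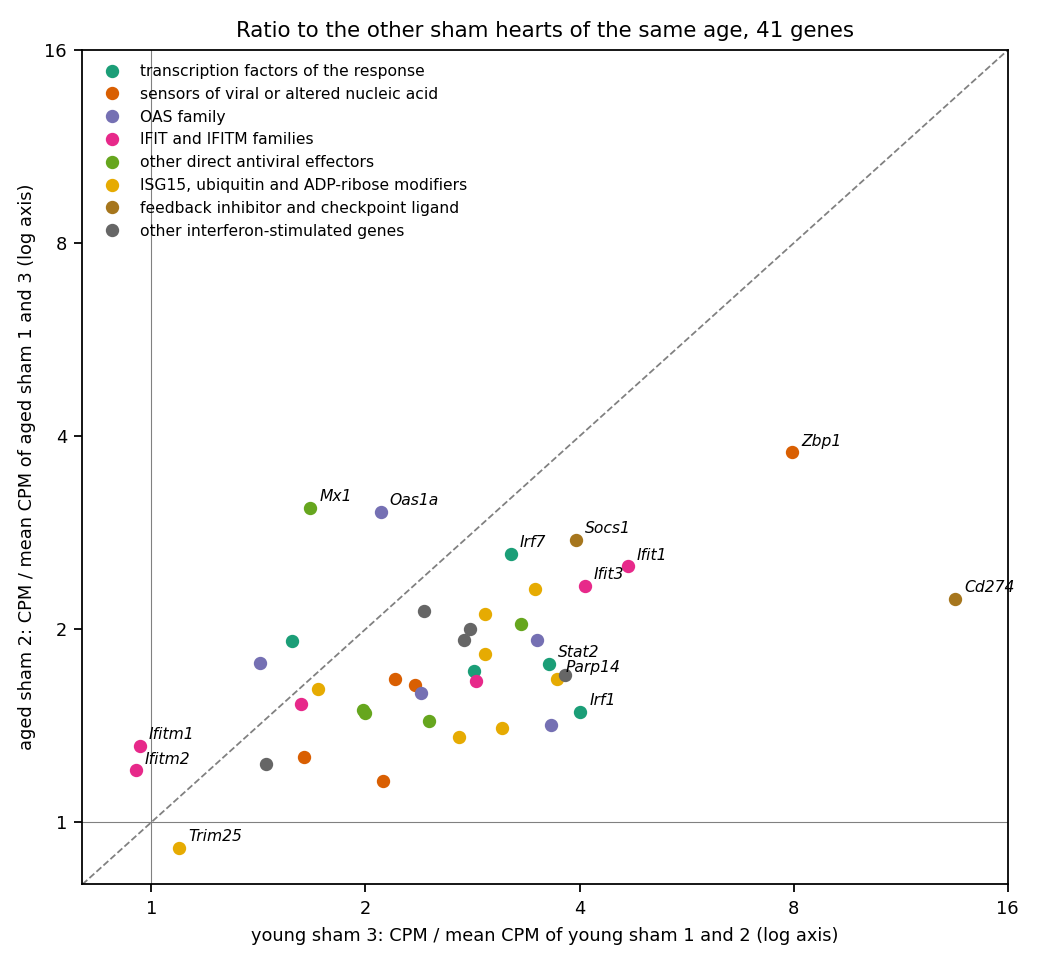
Each point is 1 of the 41 genes, coloured by role; the horizontal axis is CPM in young sham 3 over the mean of young sham 1 and 2, and the vertical axis is CPM in aged sham 2 over the mean of aged sham 1 and 3, both on log axes. Cd274 lies far to the right at 13.5, Zbp1 at 7.97 and 3.77, and Mx1 and Oas1a lie above the dashed line of equal ratios.

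The rest of the pathway was read from lists chosen with the pathway in mind. The 10 ligand genes were at or near 0: Ifng had 7 counts over all 18 libraries, Ifnk had 2, and the other 8, Ifnb1 among them, had 0, so none was tested. The receptors and kinases summed to 989.7 CPM in young sham 3 and 992 CPM in aged sham 2, inside the 832 to 1102 CPM of the other 16. The 14 GTPases of the IRG and GBP families summed to 7728 CPM in young sham 3, 1306 CPM in aged sham 2 and 333 to 674 CPM elsewhere. Genes led by interferon gamma summed to 1318 and 1334 CPM in the 2 hearts, against 202 to 752 CPM elsewhere. Cd74 was the largest part of that sum, at 486 and 516 CPM, followed by the class II gene H2-Aa, at 281 and 301 CPM. Cxcl9 was not level, at 80.7 CPM in young sham 3 and 21.3 CPM in aged sham 2, against 4.08 to 21.4 CPM elsewhere. Cxcl10, Ciita and Ido1 were also higher in young sham 3, and the other genes of this list were higher in aged sham 2.

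Markers of cells that could bring or receive interferon were summed as well. The 11 T and NK cell markers summed to 4.46 CPM in young sham 3, beside 3.51 and 2.83 CPM in its mates, and to 12.5 CPM in aged sham 2, beside 5.26 and 4.86 CPM. The highest sum in the other 16 libraries was 12.4 CPM, in Sesn2-KO IR 1. Monocyte and macrophage markers summed to 582 and 865 CPM, within the 432 to 1083 CPM of the others. The 4 of 5 neutrophil markers in the table summed to 6.49 and 15.6 CPM, where the others spanned 4.496 to 149 CPM. The part of these cells in the levels of the 41 genes was not tested in either heart. In bulk tissue, fewer cells of a type and less RNA per cell cannot be told apart.

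IR against sham in young WT called 6 of the 41 genes at an adjusted p below 0.05 (edgeR quasi-likelihood, Benjamini-Hochberg over all tested genes), beside 6.07% of all tested genes: 4 were lower (beside 1.90%) and 2 higher (beside 4.17%). Ifit2 was lower after IR, its log2 fold change being -1.31 ± 0.36 (adjusted p = 0.0409), as were Rsad2 at -1.03 ± 0.29 (adjusted p = 0.0485), Cmpk2 at -1.03 ± 0.29 (adjusted p = 0.0478) and Cd274 at -3.36 ± 0.79 (adjusted p = 0.0204). Ifitm1 was higher, at 0.66 ± 0.18 (adjusted p = 0.0404), and so was Ifitm2, at 0.57 ± 0.15 (adjusted p = 0.0369). Values after ± are standard errors worked back from the F statistic. The other always-described genes did not pass: Irf1 at -1.29 ± 0.41 (adjusted p = 0.0739), Stat2 at -1.29 ± 0.39 (adjusted p = 0.0596), Ifit3 at -1.48 ± 0.49 (adjusted p = 0.087), Irf7 at -0.96 ± 0.45 (adjusted p = 0.241) and Isg15 at -0.62 ± 0.46 (adjusted p = 0.496). Fold changes were negative for 34 of the 41 genes with a median of -0.73, while the median over all tested genes was near 0. Groups without overlap in CPM were found for 10 genes in the lower direction (24.4%, beside 9.63% of tested genes) and 2 in the higher (4.88%, beside 12.7%).

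The negative median came with 1 library. Without young sham 3 the median over the 41 genes was -0.04, with 20 positive and 21 negative values, and 0 genes were called by edgeR, with 8 at an unadjusted p below 0.05. The share of all tested genes at such a p in this fit is not given here. Cd274 became -0.96 ± 0.36 (adjusted p = 0.179), Ifit2 -0.59 ± 0.26 (adjusted p = 0.254) and Rsad2 -0.60 ± 0.26 (adjusted p = 0.252), all negative. Isg15 changed sign, to 0.12 ± 0.42 (adjusted p = 0.932). Ifitm1 and Ifitm2 kept their size, at 0.66 ± 0.21 (adjusted p = 0.116) and 0.55 ± 0.18 (adjusted p = 0.114). The count was also 0 without young IR 3, 1 without young IR 1 or young IR 2, and 8 to 9 without young sham 2 or 1, while the median in these 5 fits was -1.01 to -0.68. How many of all tested genes were called in the fits with a heart left out is not given here. Their counts therefore do not compare the 41 genes with other genes.

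**Figure D4:**
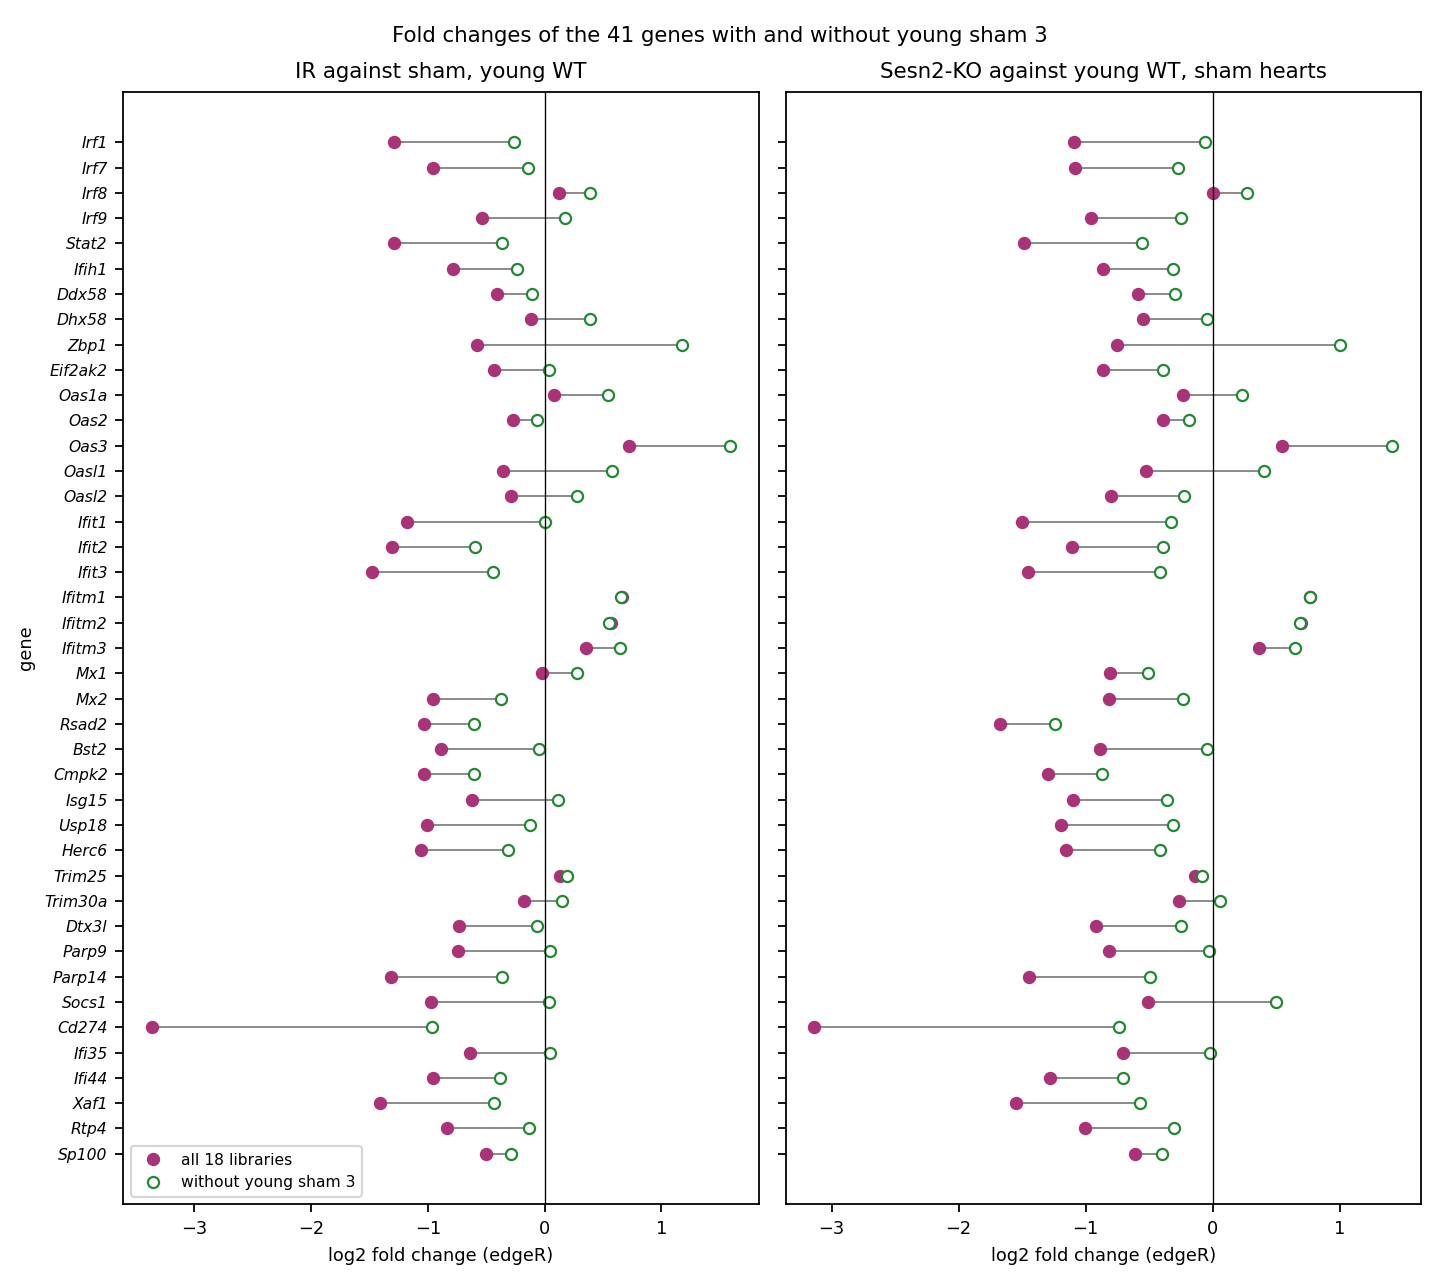
Log2 fold changes of the 41 genes with all 18 libraries (filled) and without young sham 3 (open), for IR against sham in young WT and for Sesn2-KO against young WT sham hearts. Most filled points lie left of 0 and most open points near it, while Ifitm1 and Ifitm2 shift by little and Rsad2 moves from -1.67 to -1.24 in the right panel.

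IR against sham in aged WT called 2 genes, beside 7.61% of all tested genes, and both were higher (beside 5.36%). Ifitm1 rose on the log2 scale by 1.22 ± 0.18 (adjusted p = 0.0011) and Ifitm2 by 0.62 ± 0.15 (adjusted p = 0.0213). Ifitm1 was called in all 15 alternative fits, at 1.09 to 1.37. Ifitm2 was called in 10 of 15, and lost the call without aged sham 1, aged sham 3, aged IR 1 or aged IR 2. Ifitm3 did not pass, at 0.50 ± 0.23 (adjusted p = 0.208). The other genes leaned lower, with 31 negative values and a median of -0.36, but none passed: Cmpk2 stood at -0.84 ± 0.29 (adjusted p = 0.0939), Rsad2 at -0.74 ± 0.29 (adjusted p = 0.136), Ifit2 at -0.82 ± 0.36 (adjusted p = 0.173), Irf7 at -0.83 ± 0.45 (adjusted p = 0.276) and Cd274 at -1.08 ± 0.75 (adjusted p = 0.418). Irf1, Stat2, Ifit3 and Isg15 stood at -0.33 ± 0.41, -0.40 ± 0.39, -0.97 ± 0.48 and -0.38 ± 0.46. Without aged sham 2 the median was -0.10, with 17 positive and 24 negative values, and Isg15 turned to 0.08 ± 0.49 (adjusted p = 0.94).

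Summed neutrophil and cardiomyocyte markers also differed between the groups in which Ifitm1 and Ifitm2 differed. The neutrophil sum was 4.63 to 6.49 CPM in young sham and 50.8 to 105.9 CPM in young IR, 4.50 to 15.6 CPM in aged sham and 80.2 to 148.8 CPM in aged IR. In the Sesn2-KO hearts it was 27.0 to 76.1 CPM after sham and 70.8 to 138.6 CPM after IR. Of these markers, S100a8 and S100a9 encode calprotectin, and Ly6g is not in the table. The sum of the cardiomyocyte markers divided the libraries as Ifitm1 and Ifitm2 did, in the opposite direction: all 6 sham WT hearts, at 30901 CPM or more, lay above the other 12, at 27771 CPM or less. Myh6 was the largest part of the sum in young sham 3 and aged sham 2, at 14357 and 14415 CPM. Its median in the other 16 libraries was 10080 CPM. Not all markers in the sum split the libraries so. Ryr2 was at 1131 CPM in young sham 3, below its median of 1150 CPM in the other 16. Tnnt2 was at 5296 and 5217 CPM in the same 2 hearts, beside a median of 5213 CPM. The part of either kind of cell in the levels of Ifitm1 and Ifitm2 was not tested.

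IR against sham in Sesn2-KO hearts called 0 of the 41 genes with edgeR, beside 0% of all tested genes. DESeq2 and limma voom also called 0 members. With edgeR 2 members, Mx1 and Irf8, had an unadjusted p below 0.05, beside 14.7% of all tested genes. Fold changes were positive for 38 of the 41, with a median of 0.25. Mx1 stood at 1.23 ± 0.50 (adjusted p = 0.273), Irf8 at 0.54 ± 0.24 (adjusted p = 0.311), Oasl1 at 0.56 ± 0.46 (adjusted p = 0.598) and Zbp1 at 0.61 ± 0.71 (adjusted p = 0.736). All 3 IR hearts lay above all 3 sham hearts for 14 genes (34.1%, beside 12.6% of tested genes): Irf8, Irf9, Ddx58, Dhx58, Zbp1, Eif2ak2, Oas2, Oas3, Oasl1, Oasl2, Mx1, Herc6, Trim30a and Ifi44. For 0 genes did they all lie below (beside 5.49%). Zbp1 gave 6.37, 6.92 and 4.99 CPM after sham and 8.11, 12.4 and 8.37 CPM after IR, and Oasl2 gave 16.8, 15.7 and 13.7 and 21.3, 24.5 and 22.5 CPM. The test takes its spread from all 6 groups, and a fit of these 2 groups alone also called 0 members. Rsad2 and Cmpk2 stood at 0.19 ± 0.30 and 0.03 ± 0.30, and Ifitm1 at 0.30 ± 0.17 (adjusted p = 0.432).

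Sham hearts of Sesn2-KO and young WT differed in 9 of the 41 genes, beside 5.11% of all tested genes: 7 were lower in Sesn2-KO (beside 1.79%) and 2 higher (beside 3.32%). Rsad2 was lower in Sesn2-KO, its log2 fold change being -1.67 ± 0.30 (adjusted p = 0.00455), and Cmpk2 at -1.29 ± 0.29 (adjusted p = 0.019). Cd274 at -3.14 ± 0.78 (adjusted p = 0.0302), Stat2 at -1.48 ± 0.39 (adjusted p = 0.0388), Eif2ak2 at -0.86 ± 0.23 (adjusted p = 0.0441), Parp14 at -1.44 ± 0.39 (adjusted p = 0.0446) and Xaf1 at -1.55 ± 0.43 (adjusted p = 0.0477) were lower too. Ifitm2 was higher, at 0.70 ± 0.15 (adjusted p = 0.0143), as was Ifitm1, at 0.77 ± 0.18 (adjusted p = 0.0219). Irf1, Irf7, Ifit3 and Isg15 did not pass, at -1.09 ± 0.40, -1.09 ± 0.45, -1.45 ± 0.49 and -1.10 ± 0.46. Over the 41 genes 36 values were negative and the median was -0.86. CPM groups lay apart in the lower direction for 17 genes (41.5%, beside 10.5% of tested genes) and in the higher for 2 (4.88%, beside 14.9%).

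Without young sham 3, Rsad2 was the 1 member still called in this comparison, at a smaller log2 fold change of -1.24 ± 0.26 (adjusted p = 0.0242), and the median over the 41 was -0.25. Ifitm1 and Ifitm2 lost the call but kept their size, at 0.76 ± 0.21 (adjusted p = 0.076) and 0.69 ± 0.18 (adjusted p = 0.0607). Rsad2 was called in all 15 alternative fits, at -1.90 to -1.24. Cmpk2, its neighbour, became -0.87 ± 0.26 (adjusted p = 0.103), Stat2 -0.55 ± 0.22 (adjusted p = 0.223), Parp14 -0.49 ± 0.22 (adjusted p = 0.294) and Cd274 -0.74 ± 0.36 (adjusted p = 0.349). Zbp1 and Oas3 lay at -0.75 ± 0.71 and 0.55 ± 0.56 with all libraries, and at 1.00 ± 0.61 (adjusted p = 0.475) and 1.41 ± 0.60 (adjusted p = 0.264) without the heart. The count of genes called was 1 without Sesn2-KO sham 1, 2 without Sesn2-KO sham 3, and 3 without Sesn2-KO sham 2. For the fits with a heart left out, the number of all tested genes called is not given here. These counts therefore do not compare the 41 genes with other genes. After IR the 2 genotypes gave 0 calls with edgeR, beside 0.433% of tested genes (0.310% higher), and 0 with DESeq2 and limma voom. With edgeR 1 member had an unadjusted p below 0.05, beside 12.7% of tested genes: Ifitm1 at 0.41 ± 0.18 (adjusted p = 0.341). Rsad2 after IR stood at -0.45 ± 0.30 (adjusted p = 0.561), with a 95% interval of -1.03 to 0.14. CPM groups lay apart for 6 genes in the higher direction, Irf8, Oas2, Oas3, Ifitm2, Trim30a and Socs1 (14.6%, beside 8.14% of tested genes), and for Dtx3l in the lower (2.44%, beside 4.60%).

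Aged against young WT sham hearts gave 0 calls among the 41 genes with edgeR, beside 0.152% of tested genes, and 0 with DESeq2 and limma voom. With edgeR 3 of the 41 had an unadjusted p below 0.05, beside 4.44% of tested genes. The median was -0.19, and Cd274 had the lowest value, at -2.06 ± 0.74 (adjusted p = 0.794). Irf1 and Stat2, at -0.91 ± 0.40 and -0.83 ± 0.38, were the other 2 of the 3. CPM groups lay apart for 0 members in either direction, beside 5.71% of tested genes higher and 6.57% lower. The direction turned with the library left out. Without young sham 3 all 41 fold changes were positive, with a median of 0.29. Without aged sham 2, 38 of 41 were negative, with a median of -0.55. Without both, 23 were positive and 18 negative, with a median of 0.02. None of these fits called a member, and the share of all tested genes called in them is not given here. After IR, aged and young WT hearts gave 0 calls with edgeR, beside 0.0649%, and 0 with the other tools. With edgeR 1 of the 41 genes had an unadjusted p below 0.05, beside 3.99% of tested genes. That gene was Ifitm1, at 0.67 ± 0.18 (adjusted p = 0.404), and it was the 1 member for which the 3 aged hearts lay above the 3 young ones (2.44% of the 41, beside 2.44% of tested genes). The aged hearts lay below for Trim25, Dtx3l and Sp100 (7.32%, beside 5.55%).

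The difference between IR responses was tested directly. For aged minus young WT 0 of the 41 genes were called with edgeR, beside 0% of tested genes, and 0 with DESeq2 and limma voom. The median was 0.24, and 2 genes had an unadjusted p below 0.05: Ifitm1 at 0.56 ± 0.25 (adjusted p = 1) and Cd274 at 2.28 ± 1.06 (adjusted p = 1). Of all tested genes, 1.1% had an unadjusted p below 0.05 in that contrast with edgeR. For Sesn2-KO minus young WT 0 of the 41 were called by the 3 tools, beside 0.0577% of tested genes with edgeR. With edgeR 15 of the 41 had an unadjusted p below 0.05, beside 5.55% of tested genes. The median was 0.92. Ifit2 stood at 1.56 ± 0.51 (adjusted p = 0.638), Rsad2 at 1.23 ± 0.42 (adjusted p = 0.672) and Cd274 at 3.12 ± 1.08 (adjusted p = 0.688). Without young sham 3 that median was 0.27 and 2 genes had an unadjusted p below 0.05, and for aged minus young the median was -0.23. The share of all tested genes at such a p without young sham 3 is not given here. These contrasts share the young WT hearts with those above and are not separate evidence.

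Genes of the pathway outside the 41 were read beside them. Among 14 GTPases of the IRG and GBP families, 10 fell after IR in young WT, among them Tgtp2 at -2.95 ± 0.63 (adjusted p = 0.0129) and Gbp4 at -2.67 ± 0.60 (adjusted p = 0.0156), and 0 of 14 were called without young sham 3. In Sesn2-KO against young WT sham 9 were lower, and 2, Gbp4 and Gbp9, without that heart. Among 18 transducers and upstream regulators, Myd88, the adaptor of Toll-like receptors, and Tmem173, which encodes STING, were higher after IR in young WT, at 0.83 ± 0.14 (adjusted p = 0.00305) and 0.78 ± 0.20 (adjusted p = 0.0274). Both were higher in aged WT as well, at 0.96 ± 0.14 (adjusted p = 0.00118) and 1.10 ± 0.20 (adjusted p = 0.00437), together with the kinase gene Ikbke at 1.18 ± 0.34 (adjusted p = 0.045). Both were also higher in Sesn2-KO than in young WT sham hearts. Without young sham 3 the IR calls of both stood in young WT, and of the Sesn2-KO sham calls that of Myd88 did. Of 9 receptor and kinase genes Il10rb, a chain of the interferon lambda receptor, was lower after IR in young WT, at -0.41 ± 0.10 (adjusted p = 0.0182), and in aged WT, at -0.40 ± 0.10 (adjusted p = 0.0201), and lost the call at about the same size without young sham 3, at -0.41 ± 0.11 (adjusted p = 0.0662), and without aged sham 2, at -0.36 ± 0.11 (adjusted p = 0.0621). Of 9 genes led by interferon gamma 5 were lower after IR in young WT. Among them was Cxcl9, a chemokine that draws T cells, at -2.78 ± 0.54 (adjusted p = 0.00722) with all libraries. Cxcl9 was also the 1 of the 9 called without young sham 3, and its fold change in that fit is not given here. In antigen processing 1 of 10 was lower, Nlrc5, the activator of class I genes, at -2.23 ± 0.63 (adjusted p = 0.0457), and 0 without that heart. For these fits without young sham 3 or aged sham 2, the share of all tested genes called is not given here.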

How the data were processed

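RNA from 18 left ventricles was measured, 3 in each of 6 groups taken from the sample titles. Per the labels' protocols, stranded mRNA libraries (TruSeq) were read paired-end on a NextSeq 500. The authors deposited whole-number counts per gene symbol, without normalization; the build was mm10 and the tools were TopHat2, Bowtie2, SAMtools, HTSeq and FastQC, per the submitters' processing notes. Versions, the strand option and the annotation: not given in the sources used here. Summary lines for reads in no gene (6.12% to 9.06%) and in more than 1 gene (0.631% to 0.759%) stayed out of totals and tests.

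From the counts, CPM was computed over the gene total. Tests used edgeR 4.0.16 in R 4.3.3: filterByExpr, TMM scaling, 1 mean per group over all 18 libraries, robust quasi-likelihood, and Benjamini-Hochberg adjustment over 13859 genes in each of 9 comparisons, with calls at an adjusted p below 0.05. A log2 fold change is the estimate from edgeR. Its standard error in edgeR fits was taken as the absolute log2 fold change over the square root of the F statistic. The 95% interval was built from that standard error with the normal distribution, without the residual degrees of freedom. Replicates were compared by chi-square per degree of freedom (8.48 to 48.3), and no pair was a duplicate. The steps were tested on simulated data. Members, lists and tests were chosen with earlier results of these data known. Members called in a comparison, Isg15, Irf7, Irf1, Ifit3, Stat2, Cd274 and the most abundant member of each of 8 roles are given in every library; of the pathway lists, up to 3 genes with the smallest p. Motifs were searched on both strands of RefSeq promoters (GRCm38.p6), and positions came from GENCODE M21. Alternatives were DESeq2 size factors and upper quartile scaling in edgeR, no filter, the DESeq2 1.42.0 Wald test, limma 3.58.1 voom with quality weights, the compared groups alone, a replicate block, the 6 length-tilted libraries left out, each library left out in turn, and, added after seeing the data, young sham 3 and aged sham 2 left out together.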

Additional observations from a re-analysis of the deposited data

How the results depend on the processing

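The number of the 41 genes called depended on the tool and on single libraries, while 117 of 144 recomputed counts stayed within 1.5 times their main value and 27 did not. In young WT, IR against sham (6 genes) gave a count of 2 without the low-count filter, 11 with the DESeq2 Wald test, 21 with limma voom, 0 with the 2 groups alone, 0 without the 6 length-tilted libraries, 0 without both high sham hearts, and 0 to 9 with each library left out in turn. For aged WT (2 genes) it was 4 with limma voom, 1 without the tilted libraries, and 1 to 2 with each library left out. For Sesn2-KO against young WT sham (9 genes) it was 5 without the filter, 18 with DESeq2, 29 with limma voom, 3 with the 2 groups alone, 2 without the tilted libraries, 1 without both high hearts, and 1 to 11 with each library left out. Leaving out both high hearts gave 3 calls in aged WT, Ifitm1, Ifitm2 and Irf8, the last at 0.72 ± 0.17 (adjusted p = 0.0296, edgeR). The share of all tested genes called in each of these alternative fits is not given here. Their counts therefore do not compare the 41 genes with other genes. The cause of the differences between tools was not tested. Isg15 reversed for IR in young WT, to 0.12 without young sham 3 (range with each library left out -0.98 to 0.12) and 0.12 without both hearts. In aged WT it reversed to 0.083 without aged sham 2 (range -0.73 to 0.083) and 0.082 without both. Correlations between the deviations of same-numbered samples ran from -0.33 to 0.801 over 21 pairs, and in 0 of 7 comparisons were all 3 above 0.1, so the numbers were not taken to pair samples; with the replicate block the counts were 4, 2 and 5. In the other 6 comparisons every alternative called 0 members. In each sham WT group 1 heart lay far from the rest, and levels of Oas3, Mx1 and Socs1, at a few CPM, are limited by depth.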

Other observations

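The highest level of some members was in a heart other than young sham 3 and aged sham 2. Trim25 ran highest in Sesn2-KO IR 1 and young IR 1, at 73.0 and 72.8 CPM, and spanned 48.6 to 73.0 CPM in all. Oas3 was highest in aged IR 3 and aged IR 1, at 3.67 and 3.27 CPM, while aged IR 2 stood at 0.744 CPM. Mx1 was highest in Sesn2-KO IR 2, at 5.01 CPM, and Irf8 was highest there too, at 21.2 CPM. Apart from young sham 3 and aged sham 2, the highest value of a member was between 1.35 and 10.5 times its lowest in the other 16 libraries, with a median of 2.31 over the 41 genes.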
